A study of Mus musculus with 2 samples.

Results

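Secreted plasma proteins other than clotting factors were represented in the imaging panel by Apoh, Ambp, Serpina1a, Hc and Fgl1, which are 5 of its 500 genes and are taken by name. Transcripts were counted by MERFISH, in which barcoded RNA molecules are read one at a time in tissue, in 2 frozen sections of mouse liver. Both carry the tissue label liver and the tag 2d, which was not interpreted, and the labels number them replicates 1 and 2 of 1 group without saying whether they came from separate animals. The labels give no strain, genotype, age or agent, and the treatments and metastases named in the series' design text could not be tied to either section. All comparisons were therefore made between cells within sections, and p-values measure only how far the sections disagree, which may be technical.

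Hepatocytes synthesise most plasma proteins, load them into the secretory pathway and release them into the sinusoids, so their mRNAs are among the classical markers of the hepatocyte. Apoh encodes apolipoprotein H (beta-2 glycoprotein I), a phospholipid-binding plasma protein. Ambp encodes a precursor that is cleaved into alpha-1-microglobulin, a haem-binding lipocalin, and bikunin, a protease inhibitor carried by the inter-alpha-inhibitor proteins. Serpina1a encodes an alpha-1-antitrypsin, an inhibitor of neutrophil elastase, and Hc encodes complement component C5, the precursor of the anaphylatoxin C5a and of the first subunit of the membrane attack complex. Fgl1 encodes a fibrinogen-like protein secreted by hepatocytes that is also a ligand of the T cell receptor Lag3.

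The sequences upstream of the genes are shown because their transcripts were all higher in the same group of cells. RefSeq promoters (build GRCm38.p6) were matched by symbol for 4 of the 5 genes, namely Apoh (chr11:108395047-108395296, plus strand), Ambp (chr4:63154173-63154422, minus strand), Serpina1a (chr12:103863620-103863869, minus strand) and Hc (chr2:35061413-35061662, minus strand). Fgl1 was not matched. Each line gives the 250 bases before the annotated start, 5′ to 3′, and capitals mark TTNNGNAA on either strand, a form of the recognition sequence of C/EBP factors.
Apoh: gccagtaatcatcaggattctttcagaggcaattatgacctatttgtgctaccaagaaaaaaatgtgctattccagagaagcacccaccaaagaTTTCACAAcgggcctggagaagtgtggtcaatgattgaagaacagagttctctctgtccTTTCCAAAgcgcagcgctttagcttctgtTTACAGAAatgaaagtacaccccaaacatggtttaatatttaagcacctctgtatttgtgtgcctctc
Ambp: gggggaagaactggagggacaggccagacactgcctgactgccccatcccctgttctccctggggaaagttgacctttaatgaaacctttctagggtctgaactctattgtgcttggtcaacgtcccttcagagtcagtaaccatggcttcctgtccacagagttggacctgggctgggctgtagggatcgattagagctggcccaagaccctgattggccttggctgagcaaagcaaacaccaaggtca
Serpina1a: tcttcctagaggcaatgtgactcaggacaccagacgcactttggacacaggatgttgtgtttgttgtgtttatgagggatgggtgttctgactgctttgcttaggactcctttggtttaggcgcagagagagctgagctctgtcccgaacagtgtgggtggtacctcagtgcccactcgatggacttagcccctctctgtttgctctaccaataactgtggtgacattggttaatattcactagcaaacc
Hc: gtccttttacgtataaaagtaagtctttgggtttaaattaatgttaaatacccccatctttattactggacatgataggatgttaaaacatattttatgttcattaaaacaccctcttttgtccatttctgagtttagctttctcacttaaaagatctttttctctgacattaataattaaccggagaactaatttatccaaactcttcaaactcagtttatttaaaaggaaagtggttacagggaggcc
The motif matched 3 times in Apoh, and the windows of Ambp, Serpina1a and Hc do not hold these letters. The share of all 32851 promoters listed by RefSeq that held it in the same 250 bases was 36.8%. The start listed for Hc lies inside the span that RefSeq gives the gene, so the window may not be its main promoter. The stretch before Serpina1a had 91.4% identity with that of its paralog Serpina1c, 89.4% with Serpina1d, 88.0% with Serpina1b and 60.3% with Serpina1e, in global alignments. Gap columns were counted, and 185 of 307 columns matched for Serpina1e beside 234 of 256 for Serpina1c. The Serpina1e window begins further along the shared sequence, so its low value comes at least partly from its annotated start. By the same measure 138 of 290 columns matched for Apoh, 153 of 306 for Ambp and 139 of 299 for Hc. The Serpina1 genes named are copies with near-identical transcripts, and probe sequences were not used here, so counts named Serpina1a may include the other copies.

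The tables list 26037 cells for section 1 and 85929 for section 2, which hold 428386 and 475382 counts of genes. Cells with at least 10 gene counts and a volume of at least 50 were kept, which left 9209 cells with a median of 27 counts and 16290 with a median of 15. No member served as a marker. Cells were assigned to the class with the most marker counts, with at least 2, and ties were left unassigned. This gave a hepatocyte-like group of 2571 cells in section 1 (27.9% of kept cells, median 50 counts) and 3690 in section 2 (22.7%, median 21 counts). The group is a range of a marker count and not a sharp type: 813 (31.6%) and 2181 (59.1%) of its cells had exactly the minimum of 2 marker counts, and 46.8% and 68.6% of kept cells stayed unassigned. Its cells held a median of 3 and 2 hepatocyte marker counts and a median of 0 marker counts of every other class. The rule of assignment itself keeps the counts of other classes below those of hepatocyte markers. No doublet caller was run, and cell outlines can take in transcripts of neighbouring cells.

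The 5 genes together took 2.76% of all gene counts in section 1 (11806) and 3.48% in section 2 (16547). Ambp held 5725 and 6684 counts and Apoh 4443 and 5919. Fgl1 held 779 and 2427 counts, Hc 767 and 579, and Serpina1a 92 and 938. Blank barcodes, which name no gene, set the background of decoding. In kept cells of section 1, Serpina1a held 77 counts and lay below 9 of the 50 blanks, and in section 2 Hc held 392 and lay below 1. The other values lay above the highest blank, which held 268 and 410 counts.

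All 5 genes were higher in the hepatocyte-like group than in the mean of the 6 other groups tested, which were erythroid-like, macrophage_kupffer-like, monocyte_neutrophil-like, endothelial-like, stellate_mesenchymal-like and B_lineage-like cells. Levels by cell group are given as counts per 10000 counts of non-marker genes, with exact 95% Poisson intervals that cover counting error only. Levels in bins or places within the hepatocyte-like group, given further on, use other totals. Those leave out only the landmarks or markers of that comparison, so they are not on the scale of the group levels. The level of a gene is not compared with that of another. The level of Apoh in the hepatocyte-like group was 144.3 (138.3 to 150.4) in section 1 and 161 (152 to 170) in section 2, a mean of 152.7 ± 11.8 (SD, n = 2 sections). In the other groups pooled it was 71.7 (66.6 to 77.2) and 83.4 (71.7 to 96.5). Each of the 6 groups lay below the hepatocyte-like group in both sections, with overlapping intervals only for B_lineage-like cells of section 2 (119.1, 81.5 to 168.2).

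Ambp was also highest in the hepatocyte-like group. Its level was 204.6 (197.5 to 211.9) and 211.2 (201.2 to 221.6) in the hepatocyte-like group, or 207.9 ± 4.67 (SD, n = 2), and 103.3 (97.1 to 109.8) and 130.6 (115.9 to 146.7) in the other groups pooled. The highest of the other groups reached 126.1 in section 1, in endothelial-like cells, and 182.4 in section 2, in B_lineage-like cells, where 49 counts gave an interval of 135 to 241.2 that overlaps the hepatocyte-like one. The intervals of endothelial-like (96.6 to 216.6) and monocyte_neutrophil-like cells (98.2 to 242.5) of section 2 overlap it too, and those of the other 3 groups lie below.

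Hc, the complement gene, had a 3.80-fold difference in section 1 and a 1.78-fold one in section 2. Its level in the hepatocyte-like group was 34.8 (31.9 to 37.9) and 15.5 (12.9 to 18.5), and in the other groups pooled 9.15 (7.37 to 11.2) and 8.71 (5.24 to 13.6). In section 1 the intervals of all 6 groups lay below the hepatocyte-like interval. In section 2 none did, and the groups held between 1 and 9 counts of Hc.

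Serpina1a had few counts in every group of section 1 and, outside the hepatocyte-like group, in the 6 other groups of section 2. It stood at 3.13 (2.31 to 4.16) in that group in section 1, from 48 counts, and at 24.1 (20.8 to 27.7) in section 2, from 191. In that group of section 1 the highest blank held 83 counts, or 5.42 per 10000, above Serpina1a, and the mean blank stood at 1.14. In section 2 the highest blank held 70 counts, or 8.82 per 10000, below Serpina1a. The other groups pooled held 11 counts of Serpina1a in section 1, a level of 1.11 (0.552 to 1.98), and 39 in section 2, a level of 17.9 (12.7 to 24.4). In section 2 the values in B_lineage-like cells (29.8, 8 counts) and macrophage_kupffer-like cells (27.1, 8 counts) lay above the hepatocyte-like value, within overlapping intervals. In that section the pooled intervals overlap as well.

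Fgl1, the Lag3 ligand, was measured at 26.8 (24.2 to 29.5) and 64.7 (59.3 to 70.6) in the hepatocyte-like group and at 13.98 (11.8 to 16.5) and 34.8 (27.5 to 43.6) in the other groups pooled. Its ratio between them was 1.91 and 1.86, or 1.89 ± 0.0396 (SD, n = 2), so the ratio was close in both sections while the levels differed. The separate groups all lay below the hepatocyte-like value, with intervals below its interval for 3 of 6 in section 1 and 2 of 6 in section 2. The highest were macrophage_kupffer-like cells, at 20.99 (13.3 to 31.5) and 50.7 (28.4 to 83.7), whose intervals overlap it. Lag3 itself was in the panel and had too few counts to be tested.

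**Figure D1:**
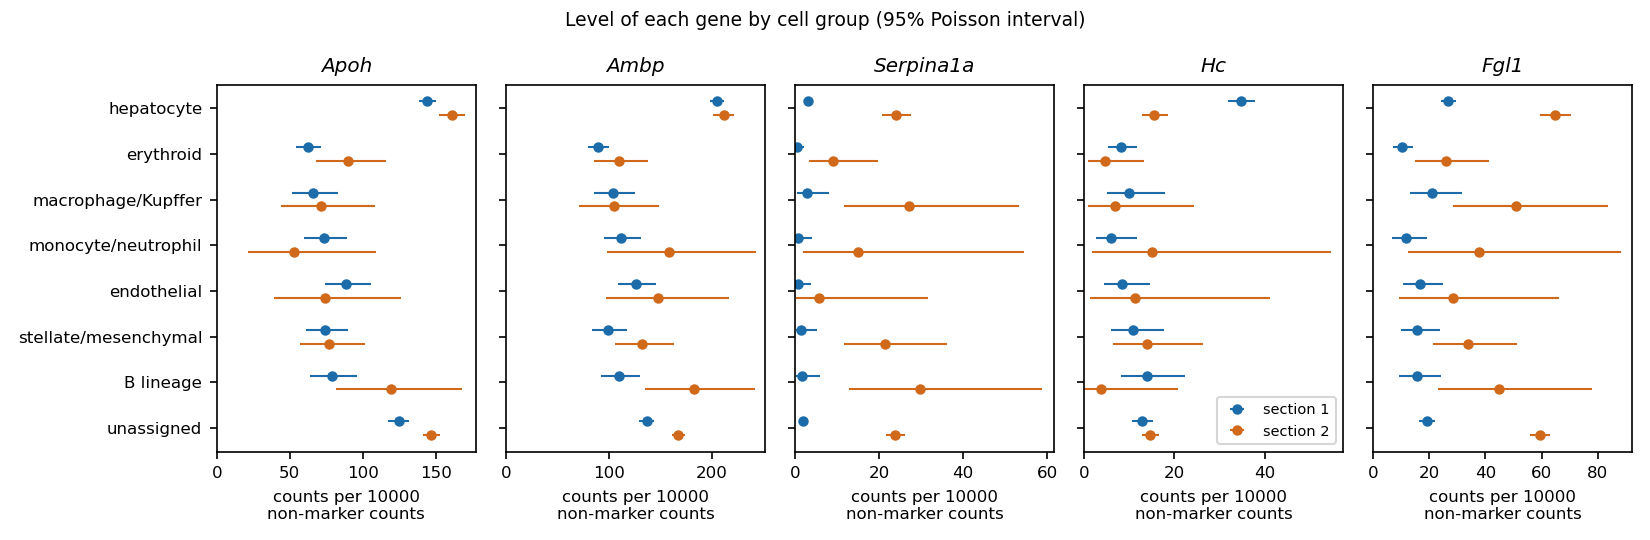
Level of each gene (horizontal axis, counts per 10000 non-marker counts) in the 7 tested cell groups and in unassigned cells, for section 1 (blue) and section 2 (orange); points are levels and bars exact 95% Poisson intervals. Apoh and Ambp are highest in the hepatocyte group in both sections, Hc stands apart in section 1 at 34.8, and Serpina1a lies between 0.581 and 3.13 in section 1 and between 5.69 and 29.8 in section 2.

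The edgeR quasi-likelihood test on counts summed per section and group, with section as a block, called 118 of 325 genes at a Benjamini-Hochberg adjusted p under 0.05, which is 36.3%. All 5 genes were among the 85 called higher, which make 26.2% of the genes tested. The log2 difference was 1.78 for Apoh (SE 0.198, adjusted p = 1.4e-12, edgeR) and 1.58 for Ambp (SE 0.179, adjusted p = 2.2e-12). It was 2.22 for Hc (SE 0.309, adjusted p = 2.7e-09), 1.80 for Serpina1a (SE 0.350, adjusted p = 1.3e-05) and 1.65 for Fgl1 (SE 0.261, adjusted p = 1.0e-07). The median of the 5 was 1.78 beside 0.14 for all genes tested. Separate sections gave 1.59 and 2.01 for Apoh, 1.56 and 1.61 for Ambp, 2.45 and 1.65 for Hc, 1.55 and 1.47 for Serpina1a, and 1.43 and 1.78 for Fgl1.

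These sizes depend on the scaling. TMM, the trimmed scaling between libraries, placed the median of all genes at 0.14, and library totals alone placed it at -0.53, with 45 genes called higher and 109 lower in place of 85 and 33. The 5 genes were then higher by 0.79 (Ambp) to 1.55 (Hc) and all 5 were among the 13.8% of genes called higher, with adjusted p between 7.1e-05 (Apoh) and 0.017 (Serpina1a). Without section as a block, Serpina1a was higher by 2.27 but did not pass (adjusted p = 0.14, edgeR), while the other 4 were among the 12.6% of genes called, none of them lower.

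The comparison was repeated near cell centres. Counting only transcripts within 4 units of the centre (the headers name no unit of length), the hepatocyte-like group exceeded the others by 2.43 for Apoh, 2.23 for Ambp, 3.39 for Hc, 3.24 for Serpina1a and 2.45 for Fgl1 on the log2 scale, with the median of the 250 genes tested at 0.38 and 29.2% of them called higher by edgeR, the 5 included. Each fitted difference was larger than with all transcripts. The other groups then held few counts, 7 of Serpina1a and 34 of Hc over both sections, with 3 of the 6 groups at 0 for Serpina1a in each section and for Hc in section 2, so the sizes for these genes depend on the prior count of the fit.

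Levels were also expressed relative to Ambp, which had the most counts of the 5. In section 1 Apoh stood at 70.5 counts per 100 of Ambp in the hepatocyte-like group (66.8 to 74.5) and between 63.2 and 74.8 in the 6 other groups, all within overlapping intervals. Fgl1 stood at 13.1 (11.8 to 14.5) per 100 of Ambp there and at 10.6 to 20.2 elsewhere. Hc stood at 17.0 (15.5 to 18.7) in the hepatocyte-like group and lower in the 6 others. It was 9.09 (5.94 to 13.4) in erythroid-like, 6.63 (3.36 to 11.9) in endothelial-like and 5.30 (2.25 to 10.7) in monocyte_neutrophil-like cells, whose intervals lie below it. In B_lineage-like (12.7, 7.18 to 21.1), stellate_mesenchymal-like (10.8, 5.88 to 18.4) and macrophage_kupffer-like cells (9.65, 4.69 to 17.9) the intervals overlap it. In section 2 Hc stood at 7.33 (6.06 to 8.81) per 100 of Ambp in the hepatocyte-like group and between 2.04 (B_lineage-like cells) and 10.5 (stellate_mesenchymal-like cells) in the others. Stellate_mesenchymal-like, monocyte_neutrophil-like (9.52) and endothelial-like cells (7.69) lay above the hepatocyte-like value, and all intervals overlap it.

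Shares of cells with a transcript were compared at full and at equal depth. In section 1 Apoh was counted in 48.2% of hepatocyte-like cells (46.2 to 50.1, exact binomial 95% interval) and 18.5% of erythroid-like cells, whose median was 36 counts. In section 2 the shares were 27.7% and 12.1%, at medians of 21 and 18 counts. With every cell thinned to 10 counts, Apoh was present in 11.4% (10.2 to 12.7) and 12.8% (11.7 to 13.9) of hepatocyte-like cells and in 5.26% (3.85 to 6.99) and 4.47% (2.63 to 7.07) of erythroid-like cells. Thinned shares of Ambp were 16.3% and 16.0% against 7.41% and 7.37%. Those of Hc were 2.68% and 1.46% against 0.478% and 0 of 380 cells, which allows up to 0.966% by the exact interval. Those of Serpina1a were 0.272% (0.110 to 0.560) and 1.68% (1.29 to 2.15) against 0.119% (0.00302 to 0.664) and 0.263% (0.00666 to 1.46). These intervals overlap in both sections, and the shares were not tested against each other. The erythroid-like shares of Serpina1a rest on 1 cell in each section.

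Levels were over 2-fold apart between the sections for 3 of the 5 genes. In the hepatocyte-like group the share of Serpina1a among all gene counts was 7.44-fold higher in section 2, and of 240 genes with at least 20 counts in both only Gstm1 had a higher ratio, at 7.58. The section 1 value of Serpina1a rests on 48 counts, below the 83 of the highest blank in that group. Fgl1 was 2.34-fold higher in section 2 and Hc 2.32-fold higher in section 1. Apoh had a ratio of 1.08 and Ambp of 1. Over the 240 genes, 76 were more than 2-fold apart and the median absolute log2 ratio was 0.73. With 1 section on each side this difference has no replicate check, and the sections also differ in depth, in the share of unassigned cells and in blanks.

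Hepatocytes along the lobule differ between the periportal side, which receives blood, and the pericentral side, which drains it. Hepatocyte-like cells with at least 5 hepatocyte-like neighbours within 50 units were scored. The score set the Glul, Cyp2e1 and Gulo counts of these neighbours against their Pck1, Ass1 and Hsd17b13 counts. Of the 2571 and 3690 hepatocyte-like cells, 364 in section 1 and 631 or 632 in section 2 fell in each of 3 bins. The others had too few such neighbours and were left out. None of the 5 genes passed the edgeR test, which called 13 of 202 genes (6.44%), 10 higher and 3 lower on the pericentral side. Ambp had the narrowest interval. Its levels from the periportal to the pericentral bin were 181.1, 176.4 and 175.9 in section 1 and 233.0, 221.5 and 193.4 in section 2, with a log2 difference of -0.14 (95% interval -0.36 to 0.08, adjusted p = 0.59, edgeR).

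Apoh levels were 127.1, 138.7 and 132.3 in section 1 and 167.1, 148.7 and 154.7 in section 2, a log2 difference of -0.02 (-0.25 to 0.22). The interval leaves out differences as large as those of 3 other secreted proteins in the panel, Igfbp2 at 0.41 (SE 0.091), Lect2 at 1.92 (SE 0.480) and Rnase4 at 3.20 (SE 0.533), the last 2 from 82 and 77 counts. Fgl1 had a difference of -0.03 (-0.43 to 0.38), with -0.34 in section 1 and 0.13 in section 2. Hc had 0.12 (-0.45 to 0.69), with -0.21 and 0.60, and Serpina1a -0.18 (-0.92 to 0.57), with 0.17 and -0.25. For these 3 the sign differed between sections and the intervals admit a fall by 0.92 for Serpina1a and a rise by 0.69 for Hc.

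**Figure D2:**
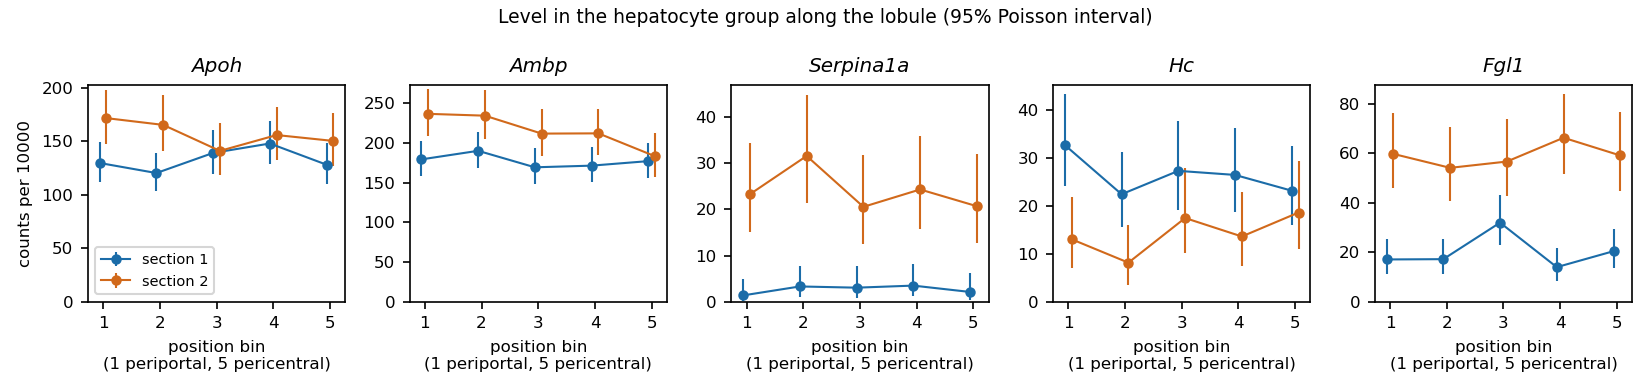
Level of each gene in hepatocyte-like cells (vertical axis, counts per 10000) in 5 bins of the neighbours' position score from periportal (1) to pericentral (5), for section 1 (blue) and section 2 (orange); bars are exact 95% Poisson intervals. Ambp in section 2 goes from 236.8 to 183.3, and in section 1 it lies between 169.4 and 190.2.

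The mouse liver sections held erythroid-like cells, 837 in section 1 and 380 in section 2. Hepatocyte-like cells whose nearest erythroid-like cell lay within 25 units (577 and 280 cells) were compared with those more than 50 units away (1310 and 2749). The edgeR test called 7 of 285 genes (2.46%) and 40 had an unadjusted p under 0.05. None of the 5 genes passed. Fgl1 levels near, between and far were 19.9, 23.8 and 26.7 in section 1 and 42.5, 46.0 and 61.8 in section 2. Fgl1 was thus lowest beside erythroid-like cells in both sections, with log2 differences of -0.41 and -0.83 and a fitted -0.61 (SE 0.216, adjusted p = 0.096, edgeR). With the minimum lowered to 5 counts per cell the difference was -0.67 and passed (adjusted p = 0.017, edgeR). Under the other settings with a test it lay between -0.76 and -0.21 and did not pass, with adjusted p between 0.17 (no TMM) and 0.999 (no block).

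For the other 4 genes the fitted differences were -0.18 (-0.53 to 0.17) for Apoh, 0.14 (-0.20 to 0.49) for Ambp, 0.28 (-0.36 to 0.92) for Serpina1a and 0.04 (-0.41 to 0.50) for Hc. Ambp levels near and far were 191.5 and 184.8 in section 1 and 251.0 and 173.4 in section 2. It passed only with cell volume as the offset, at 0.54. Median volumes near and far were 1133 and 1285 in section 1 and 1207 and 1355 in section 2, and the part of volume was not tested.

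The deposited cell tables also hold an image signal named Ttr. Ttr encodes transthyretin, another plasma protein of hepatocytes, but the labels do not say what the stain reads. Hepatocyte-like cells were split in each section into 3 bins of this signal per volume, of 857 and 1230 cells. No gene passed the edgeR test between the highest and the lowest bin (0 of 289, or 0.0%), while 56 had an unadjusted p under 0.05. DESeq2 also called 0, and other settings called up to 24 genes. Among these, Apoh passed with at least 20 counts per cell (0.60, adjusted p = 0.022, edgeR) and Hc with the signal not divided by volume (-1.01, adjusted p = 0.0054, edgeR); over all settings with a test, adjusted p ran up to 0.9996 for both genes.

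Along the signal, from lowest to highest, Hc levels were 52.7, 25.1 and 16.6 (section 1) and 11.3, 12.8 and 15.6 (section 2). Values thus ran down along the signal in one section and up in the other, with log2 differences of -1.53 and 0.54 and a fitted -0.55 (-1.57 to 0.48). Ambp levels were 204.9, 181.9 and 168.4 in section 1 and 131.9, 164.5 and 234.3 in section 2, also of opposite order, with a fitted 0.50 (-0.04 to 1.05). Apoh levels were 125.8, 129.4 and 138.0, and 119.7, 128.5 and 164.4, the only gene of the 5 with higher values at high signal in both, and the difference was 0.54 (SE 0.147, adjusted p = 0.16, edgeR). Serpina1a had -1.16 and 0.12 in the sections and Fgl1 -0.54 and -0.06. Median volumes in the lowest and highest bins were 1396 and 1099 in section 1 and 1501 and 1214 in section 2, and the median count per cell was 48 and 45, and 16 and 27. Their part in these differences was not tested.

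**Figure D3:**
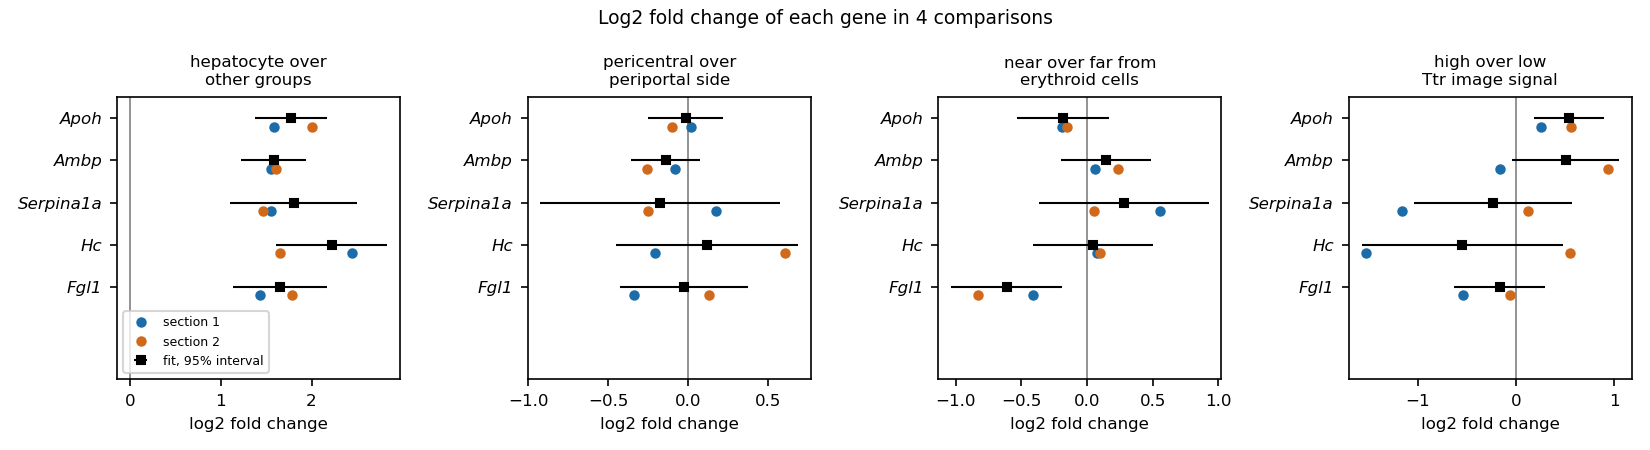
Log2 fold change (horizontal axis) of each gene in the 4 comparisons; black squares and bars are the edgeR fit with its 95% interval, blue and orange points the separate sections. All 5 genes lie above 1 in the hepatocyte comparison, and Hc and Ambp lie on opposite sides of 0 in the sections for the Ttr signal.

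Within single hepatocyte-like cells pairs of the genes were counted against what the depth of the cells gives. In section 1, 41.0% of the cells held at least 2 of the 5 genes and 2 cells held all 5, and in section 2 the share was 20.4%. In erythroid-like cells it was 9.68% and 5.53%. After thinning to 10 counts it was 2.92% and 4.25% in hepatocyte-like cells, and 0.478% and 0.526% in erythroid-like cells.

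Odds ratios over strata of equal total count set each pair against depth. Apoh and Ambp shared 812 cells in section 1, where the strata gave 798.6, and 433 in section 2 against 413.7, with odds ratios of 1.14 and 1.16. The median over all pairs of genes present in at least 5% of the cells was 0.984 (9045 pairs) and 0.959 (1485 pairs), with middle ranges of 0.799 to 1.20 and 0.835 to 1.08. Serpina1a in section 1 (1.87% of the cells) and Hc in section 2 (3.2%) fell below that share, so their pairs there are not in this background. With cells thinned to 10 counts Apoh and Ambp had 0.867 and 1.12, on opposite sides of 1. The median over the gene pairs was then also lower, at 0.745 and 0.880. Fgl1 and Hc had 1.23 and 1.61, from 94 and 27 cells. Apoh and Serpina1a had 1.90 and 1.24, from 34 and 70 cells. Serpina1a and Ambp had 1.01 and 0.71, and Serpina1a and Hc 1.77 and 0.44 from 15 and 4 cells, on opposite sides of 1. The median over the 10 pairs was 1.04 in both sections. These values are descriptions without a test.

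**Figure D4:**
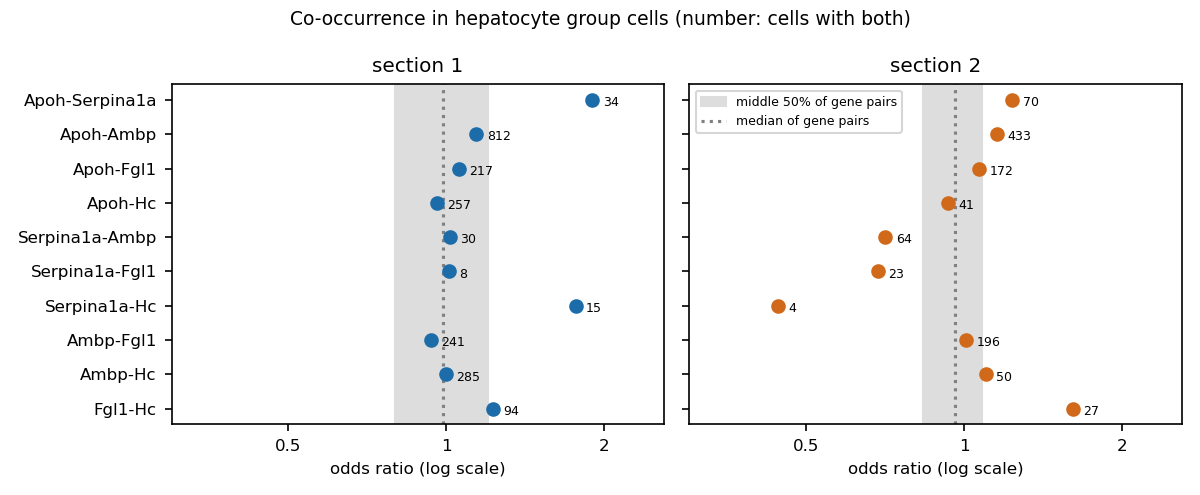
Mantel-Haenszel odds ratio (horizontal axis, log scale) of each pair of genes in hepatocyte-like cells of section 1 (left) and section 2 (right), with the number of cells holding both beside each point. The grey band and dotted line are the middle 50% and the median of pairs of genes present in at least 5% of the cells. Apoh with Ambp lies at 1.14 and 1.16, and the pairs of Serpina1a spread from 0.44 to 1.90.

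Across the tissue only Ambp had a spatial pattern above that of every blank, and in section 1 only, where 34 of 500 genes (6.80%) did so and in section 2 15 of 498 (3.01%). Moran's I, which is positive when neighbouring squares are alike, was computed on the share of each gene among counts in squares of side 50, 3368 and 5262 of them. For Ambp it was 0.108 in section 1, rank 21 of the 500 genes, and 0.0511 in section 2, rank 47, where 3 blanks lay above it. The highest blank reached 0.0848 and 0.125. Apoh stood at 0.0458 and 0.0101, Fgl1 at 0.00756 and 0.0230, Serpina1a at -0.00619 and 0.0330, and Hc at 0.00192 and -0.00488, each below several blanks in each section. With squares of side 25 or 100, Ambp in section 1 stood at 0.0602 and 0.114, with 2 blanks above it in each case. No p-value belongs to these values.

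**Figure D5:**
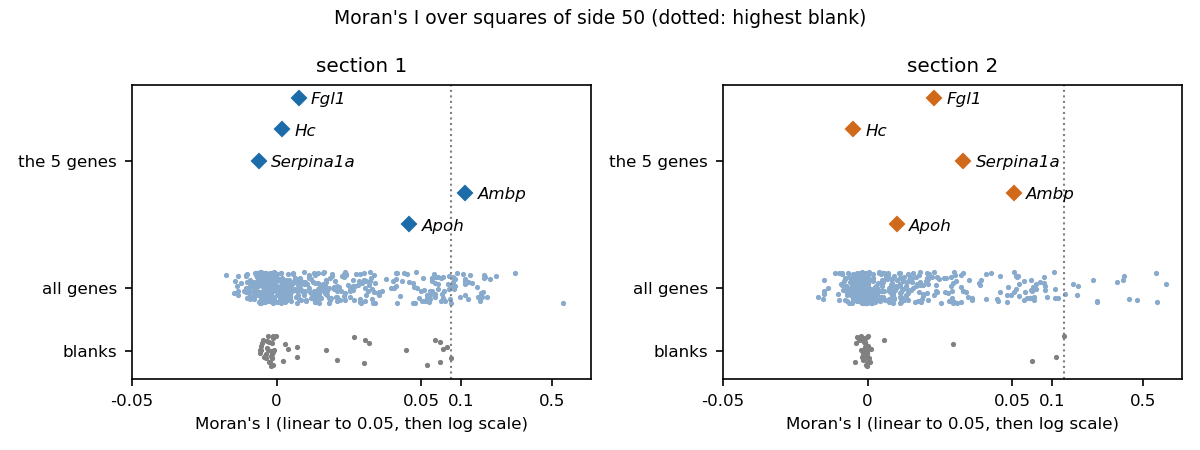
Moran's I (horizontal axis, linear to 0.05 and log beyond) over squares of side 50 for the 5 genes (diamonds), all genes (light blue) and the 50 blank barcodes (grey), with a dotted line at the highest blank. Ambp at 0.108 lies right of the line in section 1, and the 5 genes lie left of it in section 2.

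A smaller share of Hc transcripts than of those of the other 4 genes lay outside cells in both sections. Of all Hc transcripts 30.5% (27.8 to 33.3, exact binomial) in section 1 and 29.7% (26.6 to 33.0) in section 2 fell outside every segmented cell, against 40.1% and 34.4% of all gene transcripts. The median over genes with at least 100 transcripts was 38.6% and 31.5%, and 307 of 402 and 197 of 331 genes lay above Hc, whose interval in section 2 covers that median. For Apoh it was 48.5% (47.4 to 49.5) and 38.2% (37.3 to 39.2), for Ambp 42.5% and 37.7%, for Fgl1 44.5% and 35.6%, and for Serpina1a 53.5% (46.3 to 60.6) and 38.1% (35.7 to 40.6). For the blank barcodes together it was 57.5% and 48.5%. Among transcripts inside cells, 53.1% (49.5 to 56.6) and 45.9% (41.8 to 50.1) of Hc lay within 4 units of the centre. The share was 41.3% and 39.5% for Apoh and 40.9% and 38.8% for Ambp. Over all gene transcripts it was 45.0% and 41.6%, and the median gene had 48.2% and 44.1%. Serpina1a was at 54.3% in section 1, from 92 counts, and 37.5% in section 2.

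The genes whose levels over the 14 sums of section and group were most like those of each member, by Pearson's r of log2 values centred within section, were named by rank. Apoh was most like the prothrombin gene F2 (0.877), Igfbp2 (0.799) and Upb1 (0.797). Ambp was most like the fibrinogen genes Fgb (0.890) and Fga (0.871) and the protein C gene Proc (0.859). Among the genes most like Fgl1 were Apob (0.765) and Igfbp2 (0.738). Hc was most like Por (0.764), Fgb (0.760) and Fn1 (0.712). Serpina1a was most like Fgl1 (0.817), Sdc1 (0.664) and Egfr (0.634). Its sums outside the hepatocyte-like group held 1 to 3 counts in section 1 and 1 to 14 in section 2, so these r values depend on the prior count. The median r over the 112 or 113 genes compared lay between -0.10 and 0.08, and the sums share their sections and totals.

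Of 14 further plasma protein genes in the panel 12 were tested between groups, with a median of 1.68 beside 0.14 for all genes. Of these 12, 10 passed the edgeR test as higher in the hepatocyte-like group, beside 26.2% of all genes tested. Among them were haptoglobin, Hp, at 1.55 (SE 0.137), Apob at 1.76 (SE 0.233) and Proc at 2.01 (SE 0.229), while Serpina6 at 1.57 and Ang at 1.24 did not pass. By position, where 6.44% of all genes tested were called, 10 were tested and 3 rose on the pericentral side, Igfbp2, Lect2 and Rnase4. None of the 10 passed for erythroid neighbours or the Ttr signal, where their medians were -0.22 and 0.43. Of 3 complement genes and receptors 2 were tested between groups, and C2, an early protease of the pathway, was higher by 1.33 (SE 0.326, edgeR adjusted p = 5.5e-04) while Itgax, at 1.24, did not pass. Of 5 receptors and partners of the proteins only Lrp1, an endocytic receptor, had enough counts to be tested, and it was higher in the hepatocyte-like group by 0.86 (SE 0.177).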

How the data were processed

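The authors deposited raw counts per segmented cell for each section, with cell volumes, centres and an image signal per stain, and a list of decoded transcripts. Livers had been frozen, cut and placed on Vizgen slides, per the labels. The genome build, the probes and the decoding software are, in the sources used here, not given. Each deposited signal is a raw value per cell and was divided by volume. The members, gene lists and tests were chosen with earlier results of these data known. The genes named are the 5 members, the 3 genes most like each over group sums, and members of the lists where a list is counted; a gene that this rule names is not reported here.

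Counts were summed per section and cell group or place and tested with the quasi-likelihood test of edgeR 4.0.16 in R 4.3.3, with TMM scaling, a block for section, a minimum of 50 counts over all sums and Benjamini-Hochberg adjustment at 0.05. Markers or landmarks of each comparison were left out of totals and tests. Blanks were left out of totals. SEs were derived from the log2 change and its F statistic, and each single section's value is a difference of TMM-scaled log2 CPM (prior count 2). DESeq2 1.42.0 was an alternative, as were other minima, markers, normalization, filters, volume offset and radii. Each test was also run on simulated counts. For position nearly all tested genes were changed in them, so that run could not show how often unchanged genes are called. Python 3.11.15, pandas 2.3.3, scipy 1.17.1 and matplotlib 3.10.9 were used. Megakaryocyte-like, T_NK-like and cholangiocyte-like groups had under 50 cells in a section and were not tested.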

Additional observations from a re-analysis of the deposited data

Results flagged for a closer look

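Transcripts outside segmented cells entered no comparison between cells, and there 3 of the 5 genes lay above every blank barcode, of which the highest held 598 such transcripts in section 1 and 1217 in section 2. Apoh held 4179 and 3666, Ambp 4223 and 4037, and Fgl1 624 and 1342. Of all 500 genes 67 (13.4%) and 31 (6.20%) lay above that blank. Hc, with 336 and 245, and Serpina1a, with 106 and 578, had fewer than it in each section.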

How the results depend on the processing

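In the comparison of cell groups the 5 genes gave 55 values under alternatives, and 0 were reversed in direction. Values from a single section carry no p-value, so only their direction was compared. All the others kept their side of the threshold except Serpina1a without section as a block (2.27, adjusted p = 0.14, edgeR). Leaving out a section gave ranges of 1.59 to 2.01 for Apoh, 1.56 to 1.61 for Ambp, 1.47 to 1.55 for Serpina1a, 1.65 to 2.45 for Hc and 1.43 to 1.78 for Fgl1. The count of genes called, 118, became 41 without the replicate block and 77 with central transcripts. With the sections' numbers as the block in every test there is no further pairing to try. By position the 13 genes called became 5 with DESeq2, 4 without the filter on low counts, 0 without the replicate block, 8 with 3 marker counts, 5 with central transcripts and 3 at radius 30. Differences near 0 changed sign in 22 of 69 values. Those of Ambp did not: they lay between -0.30 and -0.081 over all settings, and passed in no setting with a test. Apoh became 0.011 with DESeq2, 0.27 with central transcripts and 0.18 at radius 30. Serpina1a became 0.18 with at least 20 counts per cell, 0.093 at radius 30 and 0.077 at radius 100. Fgl1 became 0.016 without the replicate block, 0.10 with at least 20 counts, 0.26 with 3 marker counts, 0.058 at radius 30, 0.060 at radius 100 and 0.049 with 5 bins. Hc became -0.046 with volume as offset, -0.25 with at least 20 counts, -0.10 with 3 marker counts, -0.14 at radius 30, -0.082 at radius 100 and -0.19 with 5 bins. Without one section the ranges were -0.10 to 0.019 for Apoh, -0.26 to -0.081 for Ambp, -0.25 to 0.17 for Serpina1a, -0.34 to 0.13 for Fgl1 and -0.21 to 0.60 for Hc. For erythroid neighbours the 7 genes called became 4 with DESeq2, 4 without the filter, 0 without the replicate block, 12 with volume as offset, and 16, 3 and 0 with at least 5 counts, at least 20 counts and 3 marker counts. Apoh turned to 0.22 with volume as offset, Ambp to -0.24 with 3 marker counts and Hc to -0.038 without the filter. For the Ttr signal the count of 0 became 6 with volume as offset, 11 and 20 with at least 5 and 20 counts, 14 with 3 marker counts, 8 with central transcripts and 24 with the signal not divided by volume. Of the 5 genes, Apoh passed with at least 20 counts and Hc with the undivided signal. Apoh then turned to -0.0075 and Ambp to -0.11 with the undivided signal. Serpina1a turned to 0.074 without the replicate block, 0.12 with volume as offset and 0.21 with central transcripts, and Fgl1 to 0.24 with volume as offset. Without one section the ranges were -1.16 to 0.12 for Serpina1a, -0.16 to 0.93 for Ambp and -1.53 to 0.54 for Hc. The mean of the sections' median odds ratios, 1.04, became 1.03 with at least 20 counts and 0.92 with thinning. With thinning the median of the background gene pairs was also lower, at 0.745 and 0.880 in the sections. The cause of these changes was not tested. Low counts limit the values of Serpina1a in section 1 (48 in the hepatocyte-like group) and of Hc in section 2 (123).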

Other observations

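Unassigned cells had fewer than 2 marker counts of every class, or a tie between classes. Exactly 1 hepatocyte marker count was held by 38.5% of them in section 1 and 43.9% in section 2. Unassigned cells held the 5 genes at levels between those of the hepatocyte-like and other groups, or near the former. In section 2 Serpina1a stood at 23.9 (21.6 to 26.3, exact Poisson) per 10000 in 11168 unassigned cells beside 24.1 (20.8 to 27.7) in the hepatocyte-like group, and Hc at 14.7 beside 15.5. In section 1 Hc stood at 12.7 (10.6 to 15.2) in 4313 unassigned cells beside 34.8. Counts of Apoh per 100 of Ambp were 91.3 (84.3 to 98.9) and 88.0 (83.3 to 92.8) in unassigned cells, above the 70.5 (66.8 to 74.5) and 76.2 (70.8 to 82.0) of the hepatocyte-like group in both sections. These values were not tested.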
